A study of Mus musculus with 7 samples.

Results

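Genes for 39 mitochondrial solute carriers were followed in the livers of Zfp90 transgenic mice and of wild-type mice. They were taken by name: every gene symbol of the array annotation that begins with Slc25a, apart from Slc25a1, Slc25a13, Slc25a15, Slc25a17 and Slc25a20, and the uncoupling proteins. Of 22218 features on the arrays, 16468 were named genes, and 39 of these met the rule, read by 40 probes. Slc25a3 had 2 probes, which differed by less than 0.1 on every array and were averaged. Of the uncoupling proteins, Ucp1 and Ucp3 had values here and Ucp2 was not analysed.

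The transgenic group held 3 mice that carry a Zfp90 transgene (1 female and 2 males), and the wild-type group held 4 littermate controls (1 female and 3 males). Neither the promoter of the transgene, the strain, the age nor the number of founder lines is given in the sources used here. RNA of each liver carried Cy5 and was hybridised beside a Cy3 pool, shared by all arrays, of male and female wild-type livers (4 mice). The labels do not say whether these were the 4 wild-type animals measured. If they were, opposite signs among the wild-type arrays are partly built in. The design asks which liver transcripts differ between the genotypes.

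Each value is a log2 ratio of an animal to that pool, so a value of 0 means the level of the pool and levels of different genes cannot be compared. Probe brightness over background is unknown, and 7 arrays set the precision. Whole liver was used, so fewer cells of a type and less RNA per cell cannot be told apart.

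Carriers of the Slc25 family sit in the inner membrane of the mitochondrion and exchange nucleotides, phosphate, carboxylic acids, amino acids and cofactors between the cytosol and the matrix. Most work as antiporters that swap a solute of the matrix for a solute of the cytosol. In hepatocytes such exchange links the urea cycle, gluconeogenesis, lipid synthesis and haem synthesis to mitochondrial metabolism. Uncoupling proteins belong to the same family, and Ucp1 is the proton channel of brown fat.

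Zfp90 read 0.34 in the transgenic female and 0.58 and 0.45 in the males of that genotype, against 0.37 in the wild-type female and -0.15, -0.29 and -0.11 in wild-type males. The wild-type female therefore read with the transgenic animals for the transgene's own gene. With that female included, Zfp90 differed by 0.48 ± 0.15 SE in the model with genotype and sex. Its adjusted p was 0.678 in limma, so it did not pass the threshold of 0.05. Counts over the carriers and the differences of some named carriers are given with and without the array of the wild-type female. Marker genes, genes of the other lists and most other carriers are given only with it. On the Y-linked Kdm5d, both females read -2.54 or lower and all 5 males read 0.14 or higher, in keeping with their labels. Array medians lay between -0.01 and 0.03. Over all features the transgenic female and wild-type male 4 had a correlation of -0.495, wild-type female 3 and wild-type male 3 of -0.362, and wild-type female 3 and wild-type male 2 of -0.312. The direction, animal over pool, was kept because the labels give the dyes and Kdm5d fits it on each array.

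Upstream sequences are shown for 3 carriers. Slc25a33 and Slc25a36 carry the same class of solute and had unlike genotype differences, and Slc25a25 had the most negative genotype difference. RefSeq windows from 250 bases before to 50 bases after a transcript start (build GRCm38.p6, minus strand for all 3) are printed 5′ to 3′. Capitals mark exact matches, on either strand, to the E-box CACGTG, the full cyclic AMP response element TGACGTCA, the CCAAT box CCAAT or the GC box GGGCGG. The Slc25a33 window lies at chr4:149774218-149774517, the Slc25a36 window at chr9:97110992-97111291, and the Slc25a25 window, the third of 3 listed starts and the only one of them with a TGACGTCA match, at chr2:32424017-32424316.
Slc25a33: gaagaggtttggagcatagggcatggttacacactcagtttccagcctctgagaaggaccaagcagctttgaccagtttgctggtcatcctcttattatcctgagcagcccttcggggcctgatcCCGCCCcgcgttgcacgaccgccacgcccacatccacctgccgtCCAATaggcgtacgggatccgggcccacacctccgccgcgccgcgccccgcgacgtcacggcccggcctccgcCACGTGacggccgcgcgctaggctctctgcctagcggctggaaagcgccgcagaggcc
Slc25a36: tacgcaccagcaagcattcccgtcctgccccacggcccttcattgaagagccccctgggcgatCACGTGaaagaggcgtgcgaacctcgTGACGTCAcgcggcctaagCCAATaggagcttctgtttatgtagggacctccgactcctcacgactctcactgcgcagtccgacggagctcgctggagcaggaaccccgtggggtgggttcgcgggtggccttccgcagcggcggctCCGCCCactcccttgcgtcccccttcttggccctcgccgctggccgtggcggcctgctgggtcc
Slc25a25: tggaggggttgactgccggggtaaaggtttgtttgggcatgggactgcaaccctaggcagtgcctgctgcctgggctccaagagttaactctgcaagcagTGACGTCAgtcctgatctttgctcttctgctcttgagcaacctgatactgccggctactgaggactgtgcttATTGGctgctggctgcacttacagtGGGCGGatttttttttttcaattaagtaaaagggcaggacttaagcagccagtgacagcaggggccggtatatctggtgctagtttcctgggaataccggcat

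The E-box of Slc25a33 began at position -8 relative to its start, and that of Slc25a36 at -187. TGACGTCA began at -161 in the Slc25a36 window and at -150 in the Slc25a25 window shown, and was not in the Slc25a33 window. Windows were listed for 30 of the 39 carriers, 38 windows in all. CACGTG was found in 13.2% of these windows (carriers Slc25a14, Slc25a31, Slc25a33 and Slc25a36) and in 7.15% of all 32851 windows. TGACGTCA was found in 5.26% (Slc25a25 and Slc25a36), against 1.79% of all windows. GGGCGG was in 76.3% of the carrier windows and 35.7% of all, and CCAAT in 44.7% and 37.4%. The Slc25a12 window held none of the 4 motifs. These matches describe letters only.

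No carrier passed the adjusted threshold for genotype. The model with genotype and sex put 25 of 39 carriers on the negative side and 14 on the positive side, with a median difference of -0.04 beside -0.01 over all features. The negative share was 64.1% of the carriers and 51.8% of all features. Below 0.1 in size lay 21 of the 39 differences and 11672 of the 22218 over all features. With the medians of the arrays set equal, 24 lay on the negative side, and after quantile normalization 25. Limma called 0 of 39 carriers at an adjusted p under 0.05, as it called 0% of all features. At an unadjusted p under 0.05 there were 2 lower carriers, Slc25a33 and Slc25a25, where 3.1% of all features were lower. Only Slc25a12 was higher at that level, where 3.82% of all features were. That makes 3 carriers of 39, a share of 7.69% beside 6.91% of all features, so the family as a whole stood near the background.

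**Figure D1:**
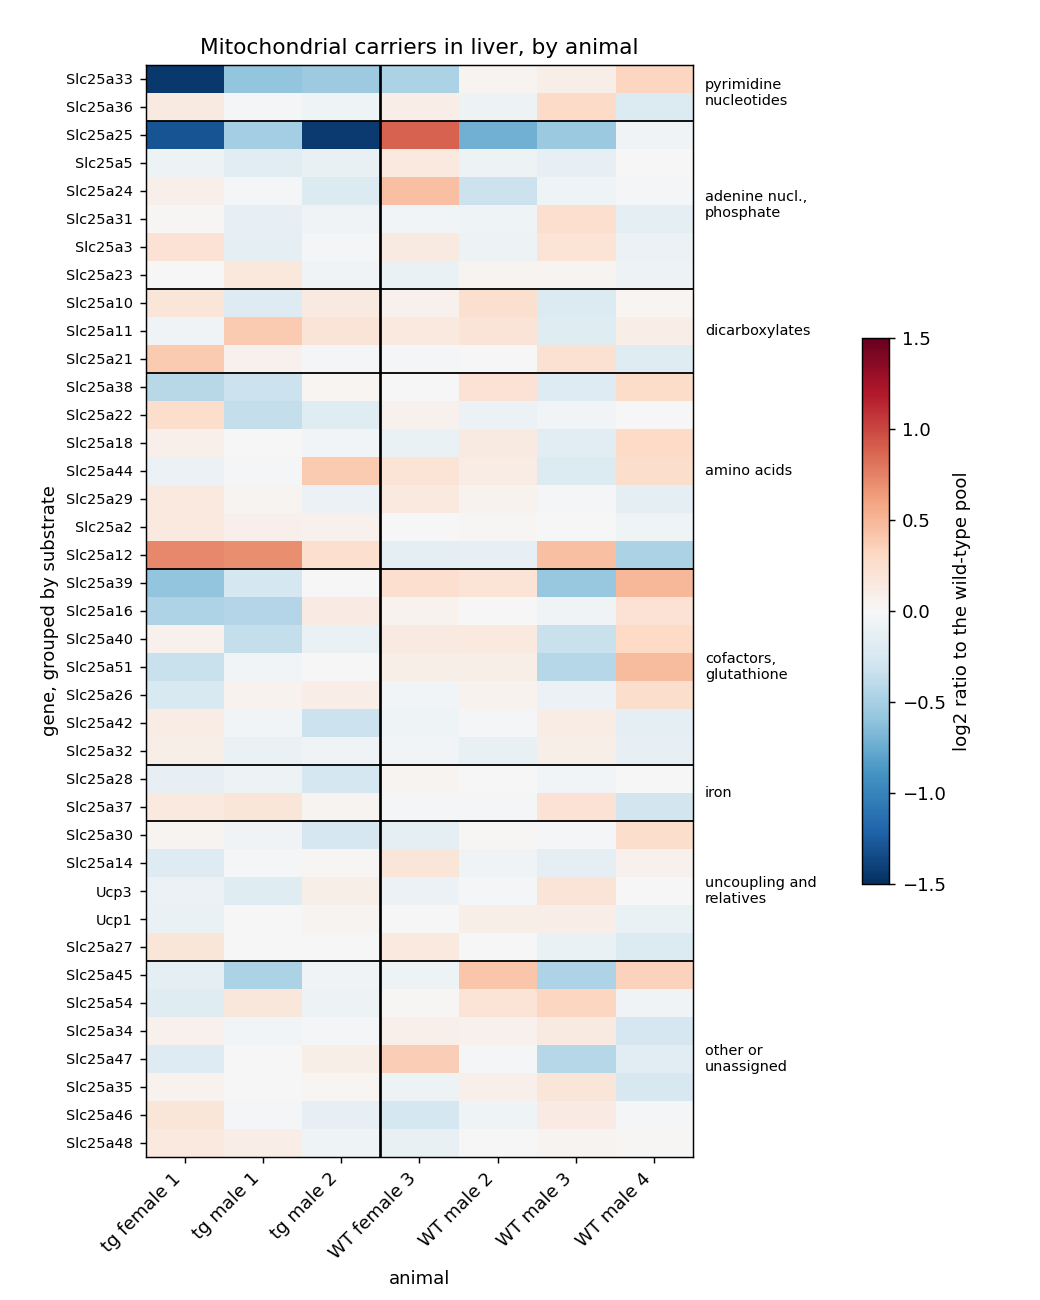
Log2 ratio to the wild-type pool for each of 39 carriers (rows, grouped by substrate) in each animal (columns, 3 transgenic left of the line and 4 wild type right of it). Slc25a33 was below the pool in all 3 transgenic animals and in wild-type female 3, whereas most rows stayed pale.

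Without wild-type male 3, the number at an unadjusted p under 0.05 was 8 (7 lower, 1 higher), while the share of all features grew to 15.9%. Those 8 were Slc25a12, Slc25a25, Slc25a33, Slc25a38, Slc25a39, Slc25a40, Slc25a45 and Slc25a51. The number was 1, Slc25a33, without the transgenic female or without wild-type female 3, where the share of all features was 6.96%. Only Slc25a33 was left also without wild-type male 4, where that share fell to 4.63%. Either female left out gives the same fit as the 5 males alone, because the remaining female then fixes the sex term.

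Among the carriers of pyrimidine nucleotides, Slc25a33 was lower in the transgenic animals and Slc25a36 was near the pool in both groups. Slc25a33 brings pyrimidine nucleotides such as UTP into the matrix, where mitochondrial RNA and DNA are made, and in human cell lines it is known to respond to insulin-like growth factor signalling. It read -1.45 in the transgenic female and -0.59 and -0.55 in the males of that genotype, against -0.47 in the wild-type female and 0.04, 0.09 and 0.32 in wild-type males. All 3 transgenic animals lay below all 4 wild-type animals, with a gap of 0.08 between transgenic male 2 and the wild-type female. The mean of the transgenic animals was -0.87 ± 0.51 (SD, n = 3), against -0.01 ± 0.33 (SD, n = 4) for wild type. The model difference was -0.80 ± 0.11 SE, a 1.74-fold lower ratio, with an adjusted p of 0.471 in limma. Ordered by p, the gene stood at position 4 of all features, and it did not pass the threshold.

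In the males alone Slc25a33 differed by -0.72 ± 0.12 SE, and the gap between the genotypes there was wider than the 0.27 spanned by the 3 wild-type males. The females differed by -0.98, from 1 animal each. Over the 15 alternatives its difference ran from -0.86 to -0.72 and its adjusted p from 0.178 to 1. The 0.178 came from limma on the features with larger ratios alone, a set picked by the size of these same ratios. Slc25a36, the other pyrimidine nucleotide carrier, read 0.14, -0.03 and -0.06 in the transgenic animals, against 0.10 in the wild-type female and -0.07, 0.29 and -0.20 in the wild-type males. Its difference was -0.02 ± 0.13 SE, and the wild-type animals spanned both ends of its values.

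The mean of the macrophage markers lay above the pool in the animals in which Slc25a33 lay below it, though not every marker did. Their mean ratio over 13 measured genes of 14 listed was 0.53, 0.37 and 0.31 in the transgenic animals, against 0.73 in the wild-type female and -0.65, -0.63 and -0.20 in the wild-type males. Of these 13 genes 11 had a positive difference, with a median of 0.46, and 3 (23.1%, beside 6.91% of all features) had an unadjusted p under 0.05, all higher, among them Cd163 (1.16 ± 0.19 SE) and Marco (1.12 ± 0.33 SE). Marco read 1.15, -0.02 and 0.10 in the transgenic animals, against 1.29 in the wild-type female and -1.67, -1.84 and -1.31 in the wild-type males. Cd163 read 1.26, 0.79 and 1.34 in the transgenic animals, against 0.16 in the wild-type female and 0.00, 0.14 and -0.49 in the wild-type males. The part of macrophages in the Slc25a33 result was not tested. Hepatocyte markers had means between -0.16 and 0.04 in transgenic and between -0.11 and 0.06 in wild-type animals over 13 genes, with a median difference of 0.02. Members lay on both sides: 5 of 13 (38.5%, beside 6.91% of all features) had an unadjusted p under 0.05, 2 higher and 3 lower. Of the hepatocyte markers 0 passed the adjusted threshold. The transgenic animals all lay above the wild-type animals in Cps1 (0.59 ± 0.11 SE) and Ass1 (0.60 ± 0.15 SE), both of the urea cycle, as in 3.17% of all features. They all lay below them in Cyp2e1 (-0.49 ± 0.11 SE), a cytochrome P450, and Apob (-0.43 ± 0.14 SE), the apolipoprotein of very low density lipoprotein, as in 2.84% of all features. The part of these differences in the values of the carriers was not tested.

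**Figure D2:**
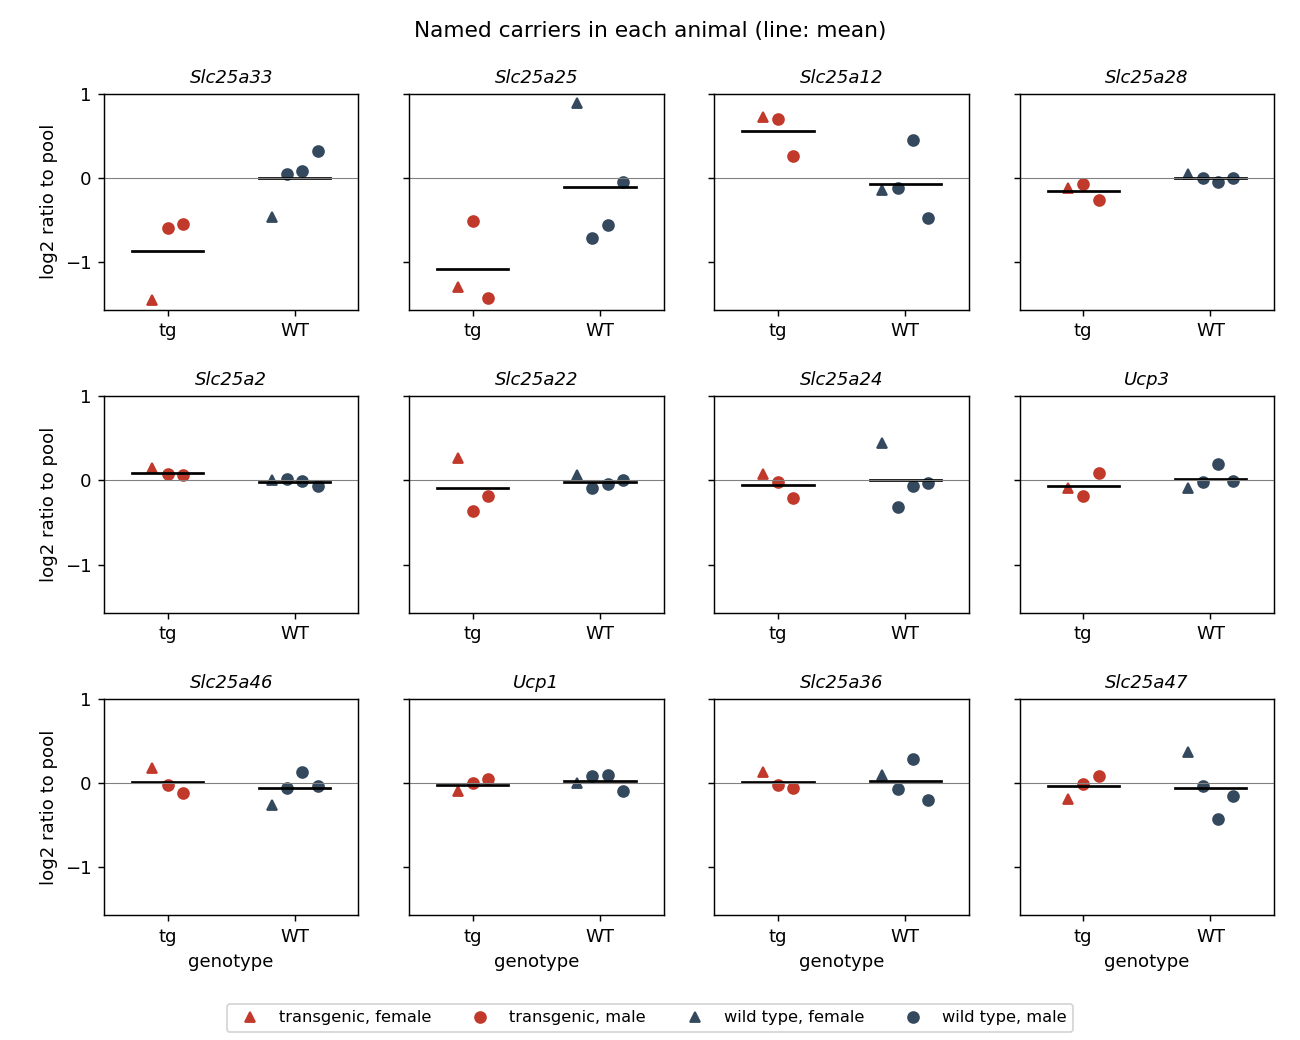
Log2 ratio to the pool of 12 carriers (panels) in transgenic and wild-type animals (triangles female, circles male, line the mean). Transgenic and wild-type points were apart in Slc25a33, Slc25a28 and Slc25a2, by 0.08, 0.03 and 0.06.

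Of the carriers of adenine nucleotides and phosphate, Slc25a25 had the most negative difference of the family and the widest spread. It is a calcium-regulated exchanger of ATP-Mg for phosphate, which sets the size of the adenine nucleotide pool in the matrix. Slc25a25 read -1.29 in the transgenic female and -0.51 and -1.43 in the males of that genotype, against 0.88 in the wild-type female and -0.72, -0.56 and -0.05 in wild-type males. Transgenic male 1 lay among the wild-type males, so the genotypes overlapped. The difference was -1.02 ± 0.37 SE (2.02-fold lower, adjusted p = 0.718 in limma). It shrank to -0.53 ± 0.31 SE without either female, and was -1.47 without transgenic male 1.

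The related Slc25a24 and Slc25a23 differed by -0.09 ± 0.13 SE and 0.07 ± 0.09 SE. The ADP/ATP exchanger Slc25a5 differed by -0.11 ± 0.09 SE, its testis relative Slc25a31 by -0.06 ± 0.12 SE and the phosphate carrier Slc25a3 by -0.04 ± 0.11 SE. So 5 of the 6 members of this class were on the negative side (83.3%, beside 51.8% of all features), and all but Slc25a25 were within 0.12 of 0.

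Dicarboxylate carriers had small genotype differences. The malate and 2-oxoglutarate carrier Slc25a11 differed by 0.13 ± 0.14 SE, the 2-oxoadipate carrier Slc25a21 by 0.13 ± 0.13 SE and the malate and phosphate carrier Slc25a10 by -0.00 ± 0.14 SE. In the males alone both transgenic animals lay above the 3 wild-type males in Slc25a11 (0.40 and 0.20, against 0.19, -0.18 and 0.10), while the females went the other way (-0.06 against 0.14).

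Of 7 amino acid carriers, Slc25a12 had the largest difference, on the positive side. Slc25a12 exchanges aspartate for glutamate in the malate-aspartate shuttle and is best known from brain and muscle. It read 0.72 in the transgenic female and 0.70 and 0.26 in the males of that genotype, against -0.14 in the wild-type female and -0.12, 0.45 and -0.48 in wild-type males. Wild-type male 3 lay above transgenic male 2, so the groups overlapped, and the wild-type males spanned 0.93. Its difference of 0.63 ± 0.23 SE (1.54-fold) had an adjusted p of 0.718 in limma and ranged from 0.49 to 0.81 over the alternatives. In the males alone it was 0.53 ± 0.28 SE, and 0.31 there without transgenic male 1 or without wild-type male 4. Markers of muscle had mean ratios of 0.12, 0.06 and -0.05 in transgenic and 0.01, -0.03, 0.12 and -0.10 in wild-type animals over 7 of 9 listed genes. Of these, 3 had a positive difference, and 1, Acta1, had an unadjusted p under 0.05 (14.3%, beside 6.91% of all features). Acta1 differed by 0.30 ± 0.09 SE, with all transgenic animals above all wild-type animals, as in 3.17% of all features. The part of the muscle markers in the value of Slc25a12 was not tested.

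Slc25a2, an ornithine carrier, lay higher in all 3 transgenic animals than in all 4 wild-type animals, but by little. Its ratios were 0.14, 0.07 and 0.07 in transgenic animals, against -0.00, 0.01, -0.00 and -0.06 in wild-type animals. The difference was 0.10 ± 0.08 SE (adjusted p = 0.845 in limma). Slc25a38, the glycine carrier of haem synthesis, differed by -0.30 ± 0.15 SE, with transgenic male 2 (0.03) inside the wild-type range of -0.19 to 0.27. The glutamate carriers Slc25a22 and Slc25a18 differed by -0.10 ± 0.12 SE and -0.03 ± 0.13 SE, the branched-chain amino acid carrier Slc25a44 by 0.00 ± 0.17 SE, and the basic amino acid carrier Slc25a29 by 0.01 ± 0.09 SE.

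Carriers of cofactors and glutathione had negative differences in 6 of 7 genes (85.7%, beside 51.8% of all features). Their median was -0.17, and 0 were at an unadjusted p under 0.05, beside 6.91% of all features. Slc25a39, which brings glutathione into the matrix, read -0.59, -0.26 and -0.00 in the transgenic animals, against 0.26 in the wild-type female and 0.21, -0.56 and 0.49 in the wild-type males. The wild-type males alone spanned 1.06 for this gene, more than its difference of -0.37 ± 0.26 SE. Slc25a16, tied to coenzyme A in the matrix, differed by -0.30 ± 0.16 SE, Slc25a40, a relative of Slc25a39, by -0.21 ± 0.16 SE, and the NAD carrier Slc25a51 by -0.17 ± 0.21 SE. The S-adenosylmethionine carrier Slc25a26 and the coenzyme A carrier Slc25a42 each differed by -0.06, and the folate and FAD carrier Slc25a32 by 0.02.

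The iron carriers, which supply haem and iron-sulphur cluster synthesis, went in opposite directions by small amounts. Slc25a28 (mitoferrin 2) read -0.12, -0.08 and -0.26 in transgenic animals, against 0.04, -0.01, -0.05 and 0.00 in wild-type animals. Each transgenic animal lay below each wild-type animal by at least 0.03, with a difference of -0.16 ± 0.09 SE (adjusted p = 0.761 in limma). This separation was lost when each array was centred on its median. The difference was -0.10 without transgenic male 2. Slc25a37 (mitoferrin 1), known from red cell precursors, differed by 0.15 ± 0.13 SE. Erythroid markers had mean ratios of 0.25, -0.08 and 0.13 in transgenic and -0.17, 0.01, -0.11 and 0.08 in wild-type animals over 8 of 11 listed genes. Of these, 7 had a positive difference (87.5%, beside 48.2% of all features), and 0 had an unadjusted p under 0.05. The part of the erythroid markers in the value of Slc25a37 was not tested.

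Every transgenic animal lay below every wild-type animal in 2 of 39 carriers (Slc25a33 and Slc25a28), as in 2.84% of all features, and above in 1 (Slc25a2), as in 3.17% of all features.

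**Figure D3:**
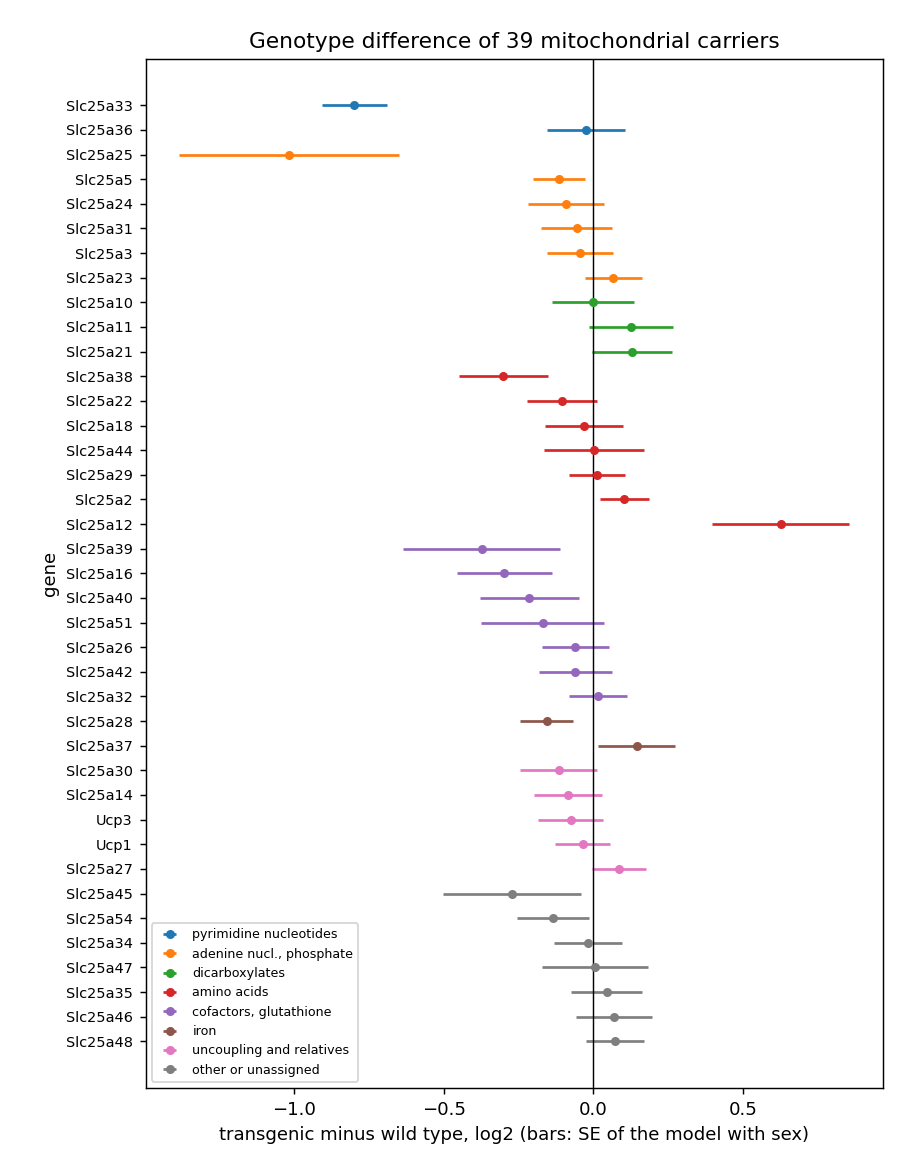
Genotype difference of the 39 carriers (points, transgenic minus wild type on the log2 scale, with the SE of the model with sex), coloured by substrate class. Slc25a33 at -0.80 and Slc25a25 at -1.02 stand on the negative side and Slc25a12 at 0.63 on the positive side, while 21 carriers lie within 0.1 of 0.

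The uncoupling proteins did not separate the genotypes. Ucp1 read -0.10, -0.00 and 0.05 in the transgenic animals, against 0.00 in the wild-type female and 0.09, 0.10 and -0.10 in wild-type males (difference -0.03 ± 0.09 SE). Ucp3, best known from skeletal muscle, read -0.09, -0.18 and 0.09 in the transgenic animals, against -0.08 in the wild-type female and -0.02, 0.19 and -0.01 in wild-type males (difference -0.08 ± 0.11 SE). For both genes the ranges of the genotypes overlapped. The brain-enriched relatives Slc25a14 and Slc25a27 differed by -0.09 ± 0.11 SE and 0.09 ± 0.09 SE, and Slc25a30 by -0.12 ± 0.13 SE. Fat cell markers had mean ratios of 0.03, -0.05 and 0.28 in transgenic and -0.17, -0.05, 0.15 and 0.03 in wild-type animals over 7 of 9 listed genes. Of these, 5 had a positive difference (71.4%, beside 48.2% of all features). At an unadjusted p under 0.05 was 1, Cidec (0.58 ± 0.20 SE; 14.3%, beside 6.91% of all features). Cidea read 1.19 in transgenic male 2.

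Among 7 carriers with another role or no assigned solute, differences ran from -0.27 to 0.07. Slc25a45 had the most negative, -0.27 ± 0.23 SE, with wild-type male 3 (-0.47) level with transgenic male 1 (-0.47). Slc25a47, a liver-enriched carrier, read -0.19, -0.01 and 0.09 in transgenic animals, against 0.37 in the wild-type female and -0.03, -0.43 and -0.15 in the wild-type males. Slc25a46 sits in the outer membrane and takes part in mitochondrial fission and fusion. It read 0.18, -0.03 and -0.12 in the transgenic animals, against -0.26, -0.06, 0.13 and -0.03 in the wild-type animals.

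Several carriers varied more among the 3 wild-type males than between the genotypes. The span of the wild-type males exceeded the size of the genotype difference in 32 of 39 carriers (82.1%), beside 86.0% of all features. It was over 0.5 in 6 carriers: Slc25a39, Slc25a12, Slc25a51 (0.91), Slc25a45 (0.88), Slc25a25 (0.67) and Slc25a40 (0.63). Wild-type males 3 and 4 had opposite signs in 30 of 39 carriers (76.9%), beside 67.7% of all features, and were the ends of the span in Slc25a39, Slc25a12, Slc25a51 and Slc25a40. The part of the shared pool in these signs was not tested.

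Fitted in the 5 males alone, 0 of 39 carriers passed limma's threshold, beside 0.0315% of all features (7 features). At an unadjusted p under 0.05 was 1 carrier, Slc25a33 (adjusted p = 0.215), where 6.96% of all features were. Both transgenic males lay below the 3 wild-type males in 4 carriers (Slc25a33, Slc25a28, Slc25a30 and Slc25a22), as in 11.4% of all features, and above them in 4 (Slc25a2, Slc25a27, Slc25a11 and Slc25a47), as in 11.2%. Slc25a22 read -0.36 and -0.18 in transgenic and -0.09, -0.04 and 0.01 in wild-type males, a difference of -0.23 ± 0.11 SE (adjusted p = 0.787 in limma). Without transgenic male 1 it was -0.15 in the males, and the difference over both sexes was -0.00. The females again went the other way, at 0.27 in the transgenic and 0.06 in the wild-type animal.

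The genotype difference had opposite signs in the females and in the males for 17 of 39 carriers (43.6%), beside 50% of all features. The interaction of genotype and sex, whose spread comes from the males because each genotype has 1 female, passed in 0 of 39 carriers (0.072% of all features, 16 features). At an unadjusted p under 0.05 were 3 carriers, where 8.42% of all features were. Slc25a25 differed by -2.18 between the females and -0.53 between the males (interaction -1.65 ± 0.57 SE, adjusted p = 0.515 in limma). Slc25a47 differed by -0.56 between the females and 0.25 between the males (interaction -0.81 ± 0.26 SE, adjusted p = 0.488 in limma). Slc25a46 differed by 0.44 and -0.09 (interaction 0.53 ± 0.21 SE, adjusted p = 0.572 in limma). For Slc25a33 the interaction was -0.26 ± 0.23 SE (adjusted p = 0.766 in limma).

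**Figure D4:**
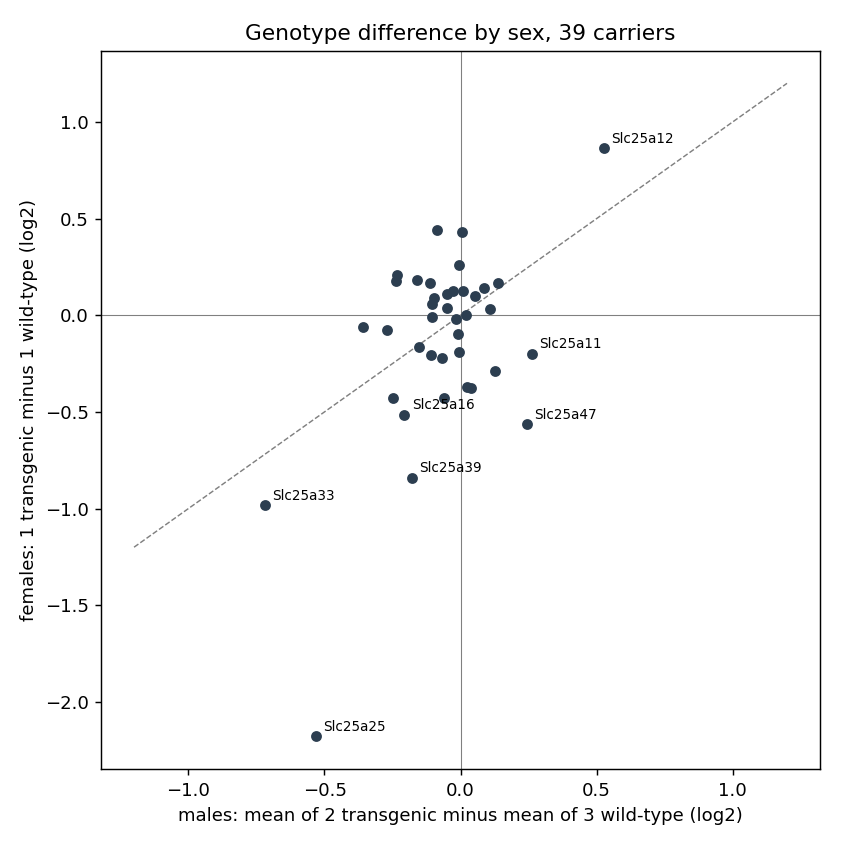
Genotype difference in the females (vertical axis, 1 transgenic minus 1 wild-type animal, log2) against that in the males (horizontal axis, mean of 2 minus mean of 3, log2) for 39 carriers, with the dashed line marking equal values. Slc25a33 (-0.98 and -0.72) and Slc25a12 (0.86 and 0.53) had like signs in both sexes, and Slc25a47 (-0.56 and 0.25) had opposite signs.

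Between the sexes, limma called 0 of 39 carriers, beside 0.351% of all features (78 features). Slc25a33 came nearest, with a female minus male difference of -0.74 ± 0.12 SE (1.67-fold lower in females, adjusted p = 0.0688 in limma). The 2 females read -1.45 (transgenic) and -0.47 (wild type), each below the 2 or 3 males of its own genotype. The sex difference of Slc25a33 was -0.62 without the transgenic female, -0.88 without the wild-type female and -0.56 after quantile normalization. The wild-type female was also the animal that read Zfp90 with the transgenic animals, so sex and genotype are not cleanly apart in this difference. Slc25a24 was at 0.40 ± 0.14 SE (adjusted p = 0.432 in limma). Its female ratios were 0.08 (transgenic) and 0.45 (wild type), and its male ratios were -0.01 and -0.21 (transgenic) and -0.32, -0.07 and -0.03 (wild type). The sex difference of Slc25a24 was 0.59 without the transgenic female and 0.19 without the wild-type female. Slc25a22 was at 0.31 ± 0.13 SE (adjusted p = 0.528 in limma), at 0.10 without the transgenic female and 0.54 without the wild-type female. These 3 carriers had an unadjusted p under 0.05, where 9.23% of all features did. Leaving out 1 animal gave 1 to 5 such carriers, with 1 without transgenic male 2 and 5 without wild-type male 3. Shares of all features in these reduced fits are not given here, so these counts cannot be set against a background.

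Genes that work beside the carriers were read as lists, each with 0 members past the adjusted threshold. Over all features, 51.8% of the differences were negative and 6.91% had an unadjusted p under 0.05. The machinery that imports carriers into the inner membrane, with the outer membrane porins, had negative differences in 11 of 14 measured genes (median -0.07). Timm9, a chaperone that escorts carriers between the membranes, read -1.18, -0.26 and -0.01 in transgenic animals, against -0.44, 0.26, -0.12 and 0.44 in wild-type animals (difference -0.45 ± 0.16 SE, the list's single member at an unadjusted p under 0.05). The porin Vdac3 came next at -0.16 ± 0.12 SE. A list of other genes of mitochondrial transport, Mtch1 and Mtch2 among them, was split, 7 positive and 7 negative of 14, with a median of -0.02. In that list Micu2, a gatekeeper of the calcium uniporter, read 0.60, 0.55 and 0.31 in the transgenic animals, against 0.29, -0.25, -0.00 and -0.22 in the wild-type animals (0.51 ± 0.12 SE).

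Genes of mitochondrial nucleotide metabolism and of the upkeep and transcription of mitochondrial DNA had 13 negative differences of 19 (median -0.08). At an unadjusted p under 0.05 were 1 higher and 1 lower gene (10.5%, beside 6.91% of all features). Nme4, the nucleoside diphosphate kinase of mitochondria, read 0.33, 0.40 and 0.51 in transgenic animals, against -0.18, 0.07, 0.00 and 0.05 in wild-type animals (0.44 ± 0.08 SE, adjusted p = 0.508 in limma). The catalytic subunit of the mitochondrial DNA polymerase, Polg, differed by -0.24 ± 0.09 SE.

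Of 12 regulators of mitochondrial genes, 7 had negative differences (median -0.04). Ppargc1a, the coactivator that drives mitochondrial gene expression in fasting, read 1.09, 0.18 and -0.04 in the transgenic animals, against 0.30, -0.29, -0.07 and -0.38 in the wild-type animals (0.46 ± 0.14 SE). The deacetylase Sirt3 read -0.38, -0.29 and -0.19 in the transgenic animals, against 0.01, 0.00, -0.18 and 0.02 in the wild-type animals (-0.25 ± 0.10 SE). Each transgenic animal lay below each wild-type animal, as in 2.84% of all features. Transgenic male 2 (-0.194) was only just below wild-type male 3 (-0.175). Neither Ppargc1a nor Sirt3 passed, at adjusted p of 0.677 and 0.72 in limma.

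Genes of mitochondrial iron and haem metabolism, which use what the mitoferrins and Slc25a38 carry, had 8 negative differences of 11 (median -0.10). Alas1, the first enzyme of haem synthesis in liver, joins glycine and succinyl-CoA. It read -2.49, -1.37 and -0.52 in the transgenic animals, against 0.15, -0.70, -0.03 and 0.31 in the wild-type animals. Wild-type male 2 lay below transgenic male 2, and the difference was -1.34 ± 0.41 SE (adjusted p = 0.677 in limma). The iron-sulphur assembly factor Isca2 came next in this list, at 0.16 ± 0.12 SE.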

How the data were processed

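Liver RNA of 7 mice was measured on 2-colour arrays. Deposited values were log10 ratios for 23574 probes, 1 column an animal. Per the labels, Cy5 marks the animal and Cy3 the pool, and the series' design text mentions a dye swap. The authors' background correction, normalization, log base and handling of the swaps are not given in the sources used here. Base 10 was read from limits at exactly -2 and 2, and the direction from Kdm5d; how the columns were centred stays unknown. Turning all signs round would turn each difference and leave p as it is.

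A factor of 3.32 took them to log2. Platform annotation gave 17824 probes 1 symbol, 50 several and 5700 none, and 0 symbols changed in the gene table of GRCm38.p6. Probes of a gene were averaged. Limma (version 3.58.1, R 4.3.3; lmFit, eBayes) fitted genotype and sex over all 22218 features, the males alone, and the interaction, with Benjamini-Hochberg adjustment over all features at 0.05. The fit was tried on simulated data with independent noise on each array. Those data lack the correlations between arrays seen here, so the trial does not bear on the results for the carriers.

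The carriers and lists were chosen with earlier results of these data known. Values of every animal were given for Slc25a33, Slc25a36, the uncoupling proteins, carriers with an unadjusted p under 0.05 or no overlap between genotypes, and the 3 smallest p of each other fit; of other lists, up to 2 members with the smallest p. Values of every animal for Slc25a39, of the males for Slc25a11, and the differences of Ass1 and Apob were added after seeing them. The mice are separate animals per the labels.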

Additional observations from a re-analysis of the deposited data

How the results depend on the processing

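No carrier passed the adjusted threshold for genotype, for sex or in the males under any alternative run. The median over carriers stayed negative. It was -0.152 among the 16 carriers in the 50% of features with the larger ratios, beside -0.0185 over all features of that set. That set had fewer genes tested. It was picked by the size of these same ratios, transgenic arrays included, so its median is no separate support. Carriers at an unadjusted p under 0.05 numbered 3, and 1 in the males alone, with a range of 1 to 8 when 1 animal was left out. The share of all features ran from 3.62% (without transgenic male 1) to 15.9% (without wild-type male 3, the setting with 8 carriers). Carriers with every transgenic animal lowest numbered 2, against 1 with arrays centred on their medians, 4 in males alone and 2 to 5 with 1 animal left out; those with every transgenic animal highest numbered 1, against 4 in males alone and 1 to 3, and fewer animals overlap less by construction. For sex, the 3 carriers at an unadjusted p under 0.05 became 1 to 5, and in the males the 1 carrier became 1 to 6 (6 without wild-type male 3). Shares of all features are not given for these reduced fits of sex and of the males. Differences near 0 changed sign: Slc25a24 was 0.0256 and Slc25a46 -0.0853 in males alone, and with 1 animal left out Slc25a24 ran from -0.192 to 0.0256, Slc25a46 from -0.0853 to 0.152, Ucp3 from -0.147 to 0.0162, Slc25a47 from -0.108 to 0.245 and Slc25a36 from -0.0891 to 0.0751. Slc25a22 kept its negative sign but ran from -0.234 to -0.00372. The cause was not tested. Slc25a33, Slc25a25, Slc25a12, Slc25a28 and Slc25a2 kept their direction under each alternative, but many alternatives could not turn it. The robust variance model, single probes, named genes alone and larger ratios alone returned the main difference for each of these carriers they held. Males alone and either female left out were the same fit. Slc25a33, Slc25a28 and Slc25a2 did not overlap between genotypes, so leaving out 1 animal could not turn them. The kept direction therefore says little about stability. No paired analysis was run, because the labels give no pairing of animals between the genotypes. Signal over background is unknown, so how far dim probes limit these ratios is not known.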
